A study of Mus musculus with 54 samples.

Results

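The 8 genes followed here mark macrophages: C1qa, C1qb, C1qc, Cd68, Mrc1, Csf1r, Ms4a7 and Cd72, out of 33126 genes listed in any library of the series. They were chosen as macrophage identity genes, with earlier results of these data known. Their levels were followed across 54 mouse kidney libraries, 39 made with the 10x droplet platform and 15 bulk, in 18 conditions of 3 libraries each, with each condition made from kidneys of 3 mice. C57BL/6J males aged 19 weeks, littermates from a line that the study's methods call AFAPIL.1DEL, gave cell suspensions made by cold dissociation with a protease from B. Licheniformis or by warm dissociation at 37 °C. Each was profiled fresh, after cryopreservation for 6 weeks, or after methanol fixation and storage for 3 months (10x v2 chemistry), and bulk libraries were made from both fresh suspensions. Balb/c males of 1 litter aged 18 weeks gave fresh cold-dissociated cells and nuclei (v2), with bulk RNA of the intact kidney. Wild-type Balb/c females aged 15 weeks, former breeders, gave cold-dissociated cells, fresh and cryopreserved for 2 weeks, and nuclei by 3 protocols (v3), with bulk RNA of the intact kidney and of the cold suspension. Nuclei were sorted by fluorescence after 3 washes with centrifugation at 500 g (SN_FANS_3×500g) or 1 wash with centrifugation at 2000 g (SN_FANS_1×2000g). Others were purified without sorting on a sucrose gradient (SN_sucrose). The AFAPIL.1DEL line is shared by all C57BL/6J groups, so none of them is a control for it, and the mice were untreated.

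C1q is the recognition molecule of the classical complement pathway. It is built from A, B and C chains, the products of C1qa, C1qb and C1qc, and unlike most complement components, which come from the liver, it is made mainly by tissue macrophages and some dendritic cells. Cd68 encodes a lysosomal glycoprotein of phagocytes, and Mrc1 the mannose receptor, an endocytic receptor of resident macrophages. Csf1r encodes the receptor for the growth factors CSF1 and IL-34, on which tissue macrophages depend. Ms4a7 encodes a small membrane-spanning protein of macrophages, and Cd72 an inhibitory lectin-like receptor best known from B cells.

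The C1q genes lie side by side on the minus strand of mouse chromosome 4 (GRCm38), in the order C1qb (chr4:136880129-136886187), C1qc (chr4:136889804-136893065) and C1qa (chr4:136895917-136898803). They span 18675 bases in all, with gaps of 3616 bases between C1qb and C1qc and 2851 bases between C1qc and C1qa. Cd72 lies elsewhere on the same chromosome (chr4:43446462-43454628, minus strand), Cd68 at chr11:69664213-69666153 (minus), Mrc1 at chr2:14229392-14332057 (plus) and Ms4a7 at chr19:11321039-11336146 (minus). The genes differ in how much of them is intron, and intronic reads were counted in nuclei and not in cells. The part of intron share in the values of nuclei below was not tested. Mrc1 spans 102.666 kb, of which 6.21% is exon, and Csf1r 31.552 kb with 18.3% exon. C1qa covers 2.887 kb (36.0% exon) and Cd68 1.941 kb (64.8% exon). The exonic share was 17.96% for C1qb, close to that of Csf1r, 59.2% for C1qc, 41.9% for Cd72 and 29.5% for Ms4a7. Csf1r overlaps Hmgxb3 by 873 bases and Cd72 overlaps Tesk1 by 1603 bases, both on the opposite strand. Whether bulk counting used strand is not given, so some bulk reads cannot be assigned with certainty.

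The promoters of 2 neighbouring C1q chain genes are shown as a description. Their part in the levels that follow was not tested. The RefSeq table (GRCm38.p6) held a window from 250 bases before to 50 bases after the start for 6 of the 8 genes. C1qa and Csf1r had none. Capitals mark GAGGAA on either strand (TTCCTC when read on the other strand), the purine-rich core letters recognized by PU.1, a transcription factor of myeloid cells and the product of Spi1. C1qb is chr4:136886151-136886450 and C1qc is chr4:136892865-136893164, both minus strand, written 5′ to 3′.
C1qb: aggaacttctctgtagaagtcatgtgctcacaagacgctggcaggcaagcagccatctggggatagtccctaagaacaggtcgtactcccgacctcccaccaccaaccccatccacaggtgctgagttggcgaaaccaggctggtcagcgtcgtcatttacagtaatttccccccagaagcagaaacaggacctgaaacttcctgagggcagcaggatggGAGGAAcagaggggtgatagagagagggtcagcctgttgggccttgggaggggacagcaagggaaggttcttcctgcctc
C1qc: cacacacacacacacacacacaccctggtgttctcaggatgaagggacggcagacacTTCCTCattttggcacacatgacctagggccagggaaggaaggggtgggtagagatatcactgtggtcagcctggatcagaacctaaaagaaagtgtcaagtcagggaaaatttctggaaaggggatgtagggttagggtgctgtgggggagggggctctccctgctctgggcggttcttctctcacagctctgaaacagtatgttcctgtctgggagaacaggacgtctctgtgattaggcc

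Each of these windows held the 6 letters 1 time, and the windows of Cd68, Cd72, Mrc1 and Ms4a7 held them at least 1 time, so 6 of 6 did. The same letters occurred in 28.3% of the 32851 promoters in the table, so they are common. The longer GAGGAAGT (ACTTCCTC on the other strand), which contains the shorter one, was in the windows of C1qc and Cd72 and in 3.20% of all. TGACTCA on either strand, the letters bound by AP-1, was in the window of Cd68 only among the 6 and in 5.20% of all. These matches describe letters and not binding.

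The depth of the 10x libraries ranged from 983522 to 35170947 UMIs, and that of the bulk libraries from 2326998 to 31093949 reads. Levels are given in CPM, counts scaled to a common total per library, after removal of mitochondrial genes, which nuclei and Balb/c male cells do not list. Differences were tested on counts, adjusted over all genes tested, and a gene is said to rise or fall where the adjusted p was under 0.05. The authors dropped genes found in fewer than 10 barcodes of a library, so a gene listed at 0 may have held a few UMIs. A member was listed at 0 in 19 of the pairings of a 10x library with a member. A member at 0 in every library of a group is not counted below as higher or lower. The shares given over all genes do include genes at 0 in a group. Where groups are said not to overlap, or to lie wholly above or below each other, the share of all genes was not counted. The 10x libraries held 175959 barcodes, and at most 1.78% of a library's barcodes recurred in another library of the same set. Marked doublets, 0.947% to 7.04% of the barcodes of a condition, were kept.

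In bulk RNA, the question was what dissociation of the kidney does to each gene's level. In Balb/c females, 7 of the 8 genes were about 2-fold higher in the cold suspension than in the intact kidney, and the remaining gene, Csf1r, was 2.43-fold lower. None of the 8 overlapped between the 3 intact and the 3 suspension libraries. The background of the calls, not of the overlap, was 8.23% of the 16516 genes tested that rose and 11.6% that fell. The median log2 difference was 0.01 over all genes and 1.13 over the 8. In bulk libraries, more cells of a type and more RNA per cell cannot be told apart.

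C1qa stood at 9.88, 14.2 and 13.2 CPM in intact replicates 1, 2 and 3, and at 23.2, 27.5 and 31.2 CPM in the suspensions. Its log2 difference was 1.10 (SE 0.14, adjusted p = 0.000551). C1qb stood at 8.95, 11.8 and 10.4 CPM against 19.5, 24.3 and 27.7 CPM. Its lowest suspension library was thus well above its highest intact library, with a log2 difference of 1.16 (SE 0.14, adjusted p = 0.000371). C1qc went from 6.85, 9.30 and 10.1 CPM to 14.8, 18.1 and 22.5 CPM, a log2 difference of 1.04 (SE 0.17, adjusted p = 0.00243). The 3 chain genes therefore rose by nearly the same factor. Corrected for exon length, C1qc was the least abundant of the chains, with 4.54 CPM per kb in intact kidney against 9.56 for C1qb and 11.9 for C1qa.

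The phagocyte genes Cd68 and Mrc1 rose by a similar amount. Cd68 stood at 2.04, 2.15 and 2.67 CPM in intact kidney and at 5.11, 5.54 and 6.97 CPM in suspension, a log2 difference of 1.32 (SE 0.17, adjusted p = 0.000548). Mrc1 stood at 3.16, 3.69 and 4.26 CPM and then at 8.36, 9.46 and 9.42 CPM, a log2 difference of 1.26 (SE 0.13, adjusted p = 0.00016). Cd72, from 3.88, 4.27 and 5.45 CPM to 10.6, 8.59 and 14.4 CPM, rose by 1.27 on the log2 scale (SE 0.20, adjusted p = 0.00191). Ms4a7, the least abundant per length (0.133 CPM per kb in intact kidney), went from 0.428, 0.718 and 0.633 CPM to 1.24, 0.911 and 1.60 CPM, a log2 difference of 1.03 (SE 0.29, adjusted p = 0.0356). Its call was lost with DESeq2 (adjusted p = 0.072) and when suspension replicate 1 or 3 or any of the intact replicates was left out (adjusted p from 0.059 to 0.13).

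Csf1r ran the other way and was the most abundant of the 8 per length in intact kidney, at 21.6 CPM per kb. It stood at 136, 111 and 127 CPM in the intact libraries and at 54.4, 44.8 and 58.9 CPM in the suspensions, a log2 difference of -1.28 (SE 0.11, adjusted p = 4.74e-05). Every suspension library lay below every intact one. Hmgxb3, the gene it overlaps, differed by -0.17 (adjusted p = 0.0535), and Tesk1, the gene that overlaps Cd72, by -0.07 (adjusted p = 0.505). The summed level of 14 other macrophage markers was 1719 to 1877 CPM in intact kidney and 2021 to 2154 CPM in suspension. That of 14 proximal tubule markers was 20907 to 23771 and 20287 to 21190 CPM. The part of these marker levels in the result was not tested. In intact kidneys of Balb/c males, a separate bulk batch with another read length that was not compared, Csf1r stood at 82.0, 82.8 and 75.3 CPM and C1qa at 5.62, 9.82 and 9.04 CPM.

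**Figure D1:**
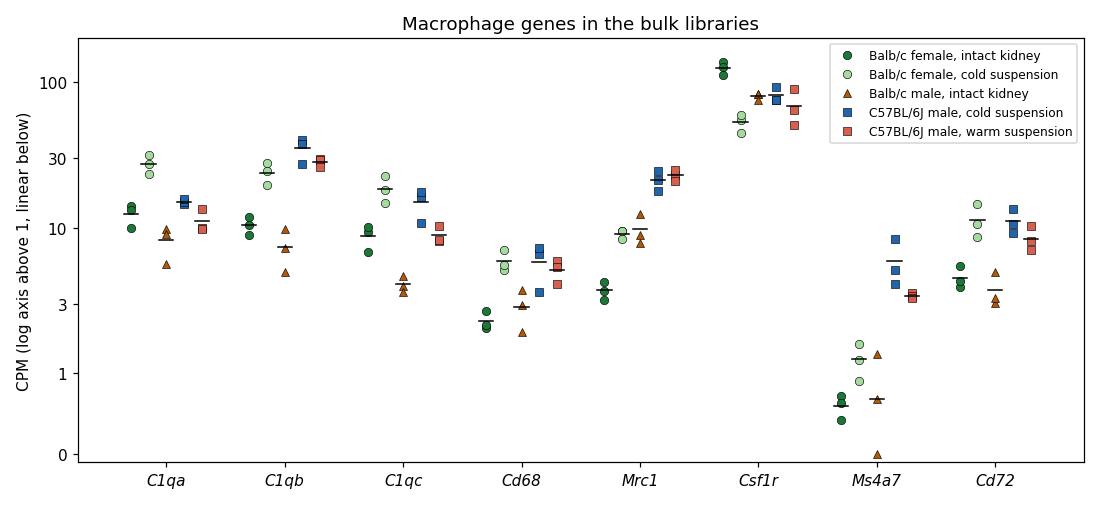
Level of each of the 8 genes (CPM, logarithmic above 1 and linear below) in the 3 libraries of each of 5 bulk conditions, with points for libraries and a line for the mean. In Balb/c females, 7 genes sit higher in the suspension than in the intact kidney, and Csf1r sits lower, at 44.8 to 58.9 CPM against 111 to 136 CPM.

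Genes that work with C1q and with the CSF1 receptor were counted from lists. Of 35 complement genes other than C1q, 28 were tested in the female bulk comparison, and 7 rose and 7 fell, with a median log2 difference of 0.09. Of those that rose, C5ar1, C3ar1, Itgax and Itgb2 encode receptors of leukocytes, and C4b, Cfp and Clu encode soluble proteins. C5ar1, a receptor for the anaphylatoxin C5a, went from 0.296, 0.650 and 0.704 CPM to 1.72, 1.19 and 1.87 CPM (log2 difference 1.49, SE 0.32, adjusted p = 0.00993). Of the integrin chains of the complement receptors, Itgax rose by 1.31 (SE 0.21, adjusted p = 0.00215) and Itgb2 by 1.28 (SE 0.15, adjusted p = 0.000318), and Itgam, at 1.02 (SE 0.49), did not pass (adjusted p = 0.18). All that fell encode soluble components or regulators. C8a, a chain of the membrane attack complex, fell from 112, 81.9 and 100 CPM to 10.3, 8.55 and 8.48 CPM (log2 difference -3.47, SE 0.13, adjusted p = 2.74e-07). C7, another component of that complex, went from 1.09, 1.40 and 2.604 CPM to 0.239, 0.0792 and 0.977 CPM (log2 difference -2.02, SE 0.60, adjusted p = 0.0428). Cfd, the protease adipsin, which adipocytes make, was at 7.97, 0.581 and 1.86 CPM in intact kidney and at 0, 0.0396 and 0 CPM in suspension (adjusted p = 0.011).

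Of 17 genes around the CSF1 receptor, all were tested, and 8 rose and 2 fell, with a median log2 difference of 0.33. The adaptors Tyrobp and Fcer1g, which pass on signals of myeloid receptors, rose by 1.04 (SE 0.23, adjusted p = 0.0109) and 1.01 (SE 0.16, adjusted p = 0.00172). The kinase subunit Pik3cd rose by 0.95 (SE 0.12, adjusted p = 0.000614). Cebpb, a transcription factor, fell by 0.57 (SE 0.16, adjusted p = 0.0298), and Cbl, a ubiquitin ligase that acts on the receptor, fell by 0.30 (SE 0.07, adjusted p = 0.0145). The ligand genes did not pass the test, with Csf1 at -0.13 (adjusted p = 0.709) and Il34 at -0.01 (adjusted p = 0.974). Of 7 genes of lymphatic and sinusoidal endothelium, a cell type that shares some scavenger receptors with macrophages, 5 were tested, and Stab2 rose while Prox1, Flt4 and Stab1 fell.

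In C57BL/6J males, the same bulk measurement compared warm with cold dissociation, without pairing of libraries. Of the 8 genes, C1qc alone passed the test, lower after warm dissociation, beside 3.05% of 14081 genes that fell. C1qc stood at 10.8, 16.3 and 17.6 CPM in the cold suspensions and at 8.03, 10.2 and 8.26 CPM in the warm ones, a log2 difference of -0.75 (SE 0.20, adjusted p = 0.035). The call was lost when warm replicate 1 or 3 or cold replicate 2 or 3 was left out (adjusted p from 0.11 to 0.14).

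C1qa stood at 14.5, 14.9 and 15.8 CPM against 9.94, 13.4 and 9.82 CPM. Its groups did not overlap, yet its log2 difference of -0.46 (SE 0.15) gave an adjusted p of 0.0847. C1qa did pass with the exact test of edgeR (adjusted p = 0.0472) and with no filter on low counts (adjusted p = 0.0389). Ms4a7 also did not overlap, with 5.13, 4.12 and 8.31 CPM against 3.54, 3.39 and 3.27 CPM (-0.79, adjusted p = 0.109). It passed with no filter (adjusted p = 0.0228). Without warm replicate 2, C1qa, C1qc and Csf1r passed the test. Without cold replicate 1, C1qb passed beside C1qc (adjusted p = 0.024). The other differences were -0.41 for Cd72, -0.30 for C1qb, -0.26 for Csf1r, -0.16 for Cd68 and 0.11 for Mrc1, and in each of these 5 genes the warm and cold libraries overlapped. Of the complement list, Itgb2 fell by 0.80 and C3ar1 fell by 0.75 among 24 genes tested, while Clu rose by 0.69 and Cd59a by 0.43, beside 5.68% of all genes that rose. Of the 17 genes around the CSF1 receptor, none rose, and Tyrobp fell by 0.79, Pik3cd fell by 0.60 and Maf fell by 0.29. Of the 5 lymphatic and sinusoidal genes tested, Prox1 rose by 0.81 (adjusted p = 0.00918).

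The 10x libraries show which barcodes carried these RNAs. Barcodes were clustered without the 8 genes and named from 14 other macrophage markers, so that the levels below did not choose the class. In the 18 C57BL/6J libraries, 92.3% of C1qa UMIs, 90.8% of C1qb, 91.7% of C1qc and 91.2% of Ms4a7 lay in macrophage-like barcodes. The remaining genes were spread wider. For Cd72 the share was 79.6%, with a further 6.38% in B cell-like barcodes. For Mrc1 it was 79.1%, for Cd68 67.0% and for Csf1r 63.7%, with 19.2% of Csf1r UMIs in monocyte-like barcodes. These values pool conditions that differ. For C1qa the share of a library was 92.0% to 94.6% in cold fresh, 92.5% to 98.2% in cold cryopreserved and 75.2% to 83.1% in cold methanol libraries, and for Csf1r it was 59.0% to 79.1%, 55.7% to 66.9% and 34.0% to 55.3%.

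Within the C57BL/6J macrophage-like class, C1qb reached 5943 ± 807 CPM (SD, n = 18 libraries), C1qa 4872 ± 1090.1 CPM and C1qc 3719 ± 606 CPM. Cd72 reached 814 ± 120 CPM, Cd68 646 ± 102 CPM, Ms4a7 629 ± 162 CPM and Csf1r 414 ± 190 CPM, and Mrc1 33.2 ± 36.1 CPM. Monocyte-like barcodes held Csf1r at 426 ± 127 CPM, within the spread of the macrophage-like values, and Cd68 at 485 ± 170 CPM. B cell-like barcodes held Cd72 at 188 ± 58.2 CPM. In the 6 Balb/c female cell libraries the class held C1qa at 9165 ± 1720.2 CPM, C1qb at 6856 ± 928 CPM and C1qc at 4236 ± 701 CPM, and 96.5% of C1qa UMIs. Csf1r there reached 764 ± 145 CPM, against 306 ± 45.2 CPM in monocyte-like barcodes. Mrc1 stood at 191 ± 36.8 CPM, but mouse strain, sex, age and chemistry all differ from the C57BL/6J libraries and cannot be told apart.

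In fresh cold-dissociated C57BL/6J cells, most macrophage-like barcodes held a UMI of each C1q chain, and a minority held one of each other gene. These shares depend on depth. Of 654 macrophage-like barcodes, 85.0% held a C1qb UMI, 81.3% C1qa and 79.4% C1qc. The shares were 45.3% for Cd68, 43.6% for Cd72, 36.9% for Ms4a7, 33.6% for Csf1r and 5.505% for Mrc1, at a median of 814 to 1440 UMIs a barcode. Proximal tubule-like barcodes, which should lack C1q, held C1qb in 2.12% and C1qa in 1.41% of cases, at a median of 1344 to 1929.5 UMIs. After thinning each barcode to 500 UMIs, which left out 47 shallower ones, the macrophage-like shares were 79.5% for C1qb, 73.4% for C1qa, 68.3% for C1qc and 22.8% for Cd68.

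Fresh cells of warm and cold dissociation were compared over the sum of all barcodes. The C1q chains and Cd68 were lower after warm dissociation, 4 of the 8 genes, beside 6.9% of 12051 genes that fell. C1qa stood at 266, 251 and 303 CPM in cold and at 179, 188 and 168 CPM in warm libraries (log2 difference -0.47, SE 0.11, adjusted p = 0.0246). C1qb, at 288, 289 and 364 CPM against 197, 210 and 186 CPM, differed by -0.52 (SE 0.13, adjusted p = 0.0251). C1qc, at 185, 180 and 228 CPM against 122, 126 and 107 CPM, differed by -0.59 (SE 0.13, adjusted p = 0.0193). Cd68 stood at 43.8, 43.7 and 58.6 CPM against 27.7, 33.5 and 26.8 CPM (-0.57, SE 0.17, adjusted p = 0.0493). In all 4 genes every warm library lay below every cold library, but so it did in Csf1r, Cd72 and Mrc1, which did not pass. The calls rest on few libraries, since none of the 4 was left without warm replicate 1, warm replicate 3 or cold replicate 3, and 2 without cold replicate 2. With the mouse as a replicate block, where 6.29% of all genes fell, C1qb (adjusted p = 0.0484) and C1qc (adjusted p = 0.0439) kept the call, and C1qa (adjusted p = 0.0519) and Cd68 (adjusted p = 0.076) lost it. Cd68 also lost it with DESeq2 (adjusted p = 0.0541).

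The other 4 genes did not pass. Csf1r differed by -0.04 (adjusted p = 0.873), Cd72 by -0.23 (adjusted p = 0.315) and Ms4a7 by -0.66 (adjusted p = 0.142), and Mrc1 was listed at 0 in warm replicate 1. The macrophage-like share of barcodes was 5.43 ± 0.473% in cold and 5.11 ± 0.552% in warm libraries (SD, n = 3 each; exact two-sided permutation p = 0.5, where 0.1 is the smallest possible), and the libraries overlapped. With barcodes chosen by a gate of 4 of the 14 markers instead, the shares were 4.05 ± 0.218% and 2.77 ± 0.221% and did not overlap (exact permutation p = 0.1). When only the UMIs of macrophage-like barcodes were summed, none of the 8 genes passed with edgeR, none had an unadjusted p under 0.05 and none passed with DESeq2, beside 3.59% of 2229 genes called in either direction. There the log2 differences were -0.17 for C1qa, -0.20 for C1qb and -0.28 for C1qc, each with warm libraries below cold ones.

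**Figure D2:**
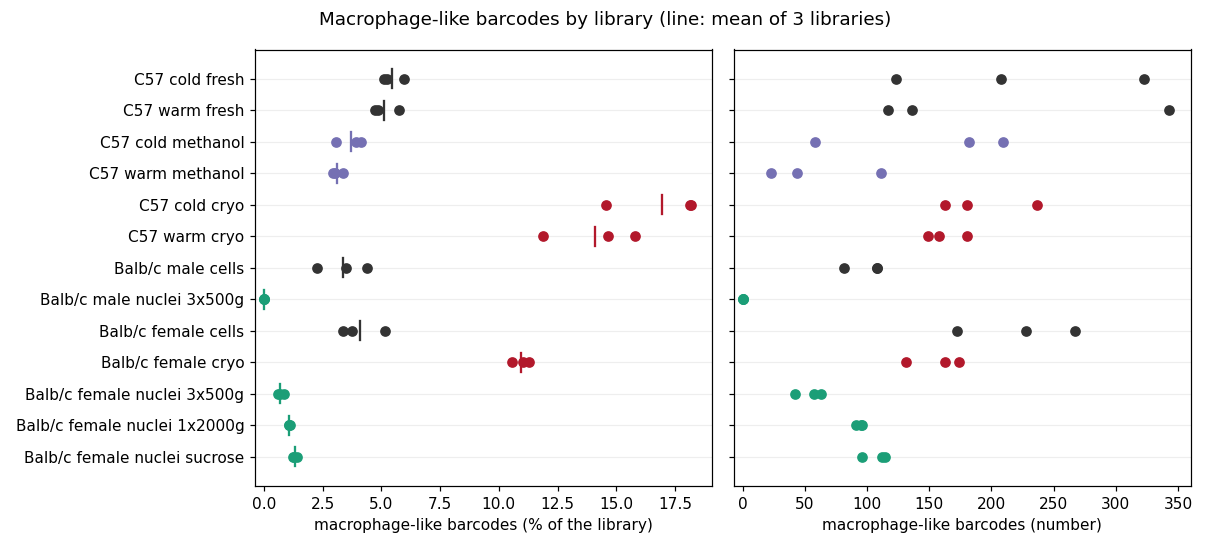
Macrophage-like barcodes as a percentage of a library (left) and as a number (right) in the 13 conditions of 10x libraries, with a point for each library and a line for the mean of 3. The share rises from 5.43% to 16.9% with cryopreservation of cold C57BL/6J cells, while the numbers of macrophage-like barcodes overlap.

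Cryopreservation raised every gene that could be tested, in each of its 3 comparisons. In cold-dissociated C57BL/6J cells all 8 genes rose, beside 20.7% of 11530 genes that rose and a median log2 difference over all genes of -0.16. C1qa went from 266, 251 and 303 CPM to 1224, 855 and 1215 CPM, a log2 difference of 1.80 (SE 0.17, adjusted p = 0.000141). C1qb reached 1400.5, 981 and 1365 CPM (1.78, SE 0.18) and C1qc 778, 561 and 815 CPM (1.65, SE 0.19). The chains thus stood more than 3-fold above the fresh libraries. Cd68 rose by 1.72 (SE 0.23), Cd72 by 1.73 (SE 0.21) and Ms4a7 by 1.44 (SE 0.25). Csf1r went from 35.4, 32.9 and 32.6 CPM to 177, 117 and 140 CPM, the largest difference of the 8 at 1.89 (SE 0.15, adjusted p = 6.02e-05). Mrc1 went from 3.31, 3.78 and 5.09 CPM to 14.3, 11.1 and 10.7 CPM, a log2 difference of 1.34 (SE 0.36, adjusted p = 0.0154). Its call was lost with the mouse as a replicate block (adjusted p = 0.123) and without cold fresh replicate 2 (adjusted p = 0.057).

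In warm-dissociated cells, 7 of 7 genes tested rose, beside 25.5% of 10832 genes. C1qa went from 179, 188 and 168 CPM to 570.0, 885 and 614 CPM (1.61, SE 0.18, adjusted p = 0.000218). C1qb rose by 1.66, C1qc by 1.52, Cd68 by 1.58, Ms4a7 by 1.46 and Cd72 by 1.73. Csf1r rose by 1.01 (SE 0.21, adjusted p = 0.00467), from 32.2, 31.8 and 23.7 CPM to 67.5, 96.6 and 61.6 CPM. The rise of Csf1r was smaller than in cold-dissociated cells by 0.91 on the log2 scale, but this difference did not pass (adjusted p = 0.0676), beside 6.01% of all genes that did. Mrc1 was not tested, since 2 cryopreserved libraries and 1 fresh library listed it at 0.

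In Balb/c females, 2 weeks of storage raised all 8 genes, beside 27.9% of 11934 genes. C1qa went from 176, 146 and 279 CPM to 602, 781 and 871 CPM (1.48, SE 0.22, adjusted p = 0.000554). Cd72 rose by 1.50, Ms4a7 by 1.49, C1qc by 1.45, Cd68 by 1.42, C1qb by 1.33, Csf1r by 1.31 and Mrc1 by 1.16. In each of the 8 genes the lowest cryopreserved library lay above the highest fresh one. The call of Mrc1 (adjusted p = 0.0172) was lost without cryopreserved replicate 3 (adjusted p = 0.073). In tests of whether the change differed between Balb/c females and cold-dissociated C57BL/6J males, none of the 8 genes passed or had an unadjusted p under 0.05, beside 19.8% of 11694 genes that passed.

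The libraries changed in makeup at the same time. Macrophage-like barcodes went from 5.43 ± 0.473% to 16.9 ± 2.08% in cold C57BL/6J cells and from 5.11 ± 0.552% to 14.1 ± 2.02% in warm ones. In Balb/c females they went from 4.09 ± 0.951% to 10.96 ± 0.362% (n = 3 each, exact two-sided permutation p = 0.1 in each, the smallest possible). At clustering resolution 1 the fresh share in Balb/c females was 2.32 ± 0.398%. Their numbers did not rise in step: cold fresh libraries held 123, 208 and 323 macrophage-like barcodes and cold cryopreserved ones 163, 180 and 237. Proximal tubule-like barcodes numbered 4817 in the cold fresh and 8 in the cold cryopreserved C57BL/6J libraries, 5366 and 9 in the warm ones, and 6119 and 172 in Balb/c females. The summed level of 14 proximal tubule markers fell accordingly, from 18575 to 26689 CPM in cold fresh libraries to 285 to 393 CPM after cryopreservation. The summed level of 14 macrophage markers was 1601 to 1888 CPM and then 3696 to 5065 CPM.

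Within macrophage-like barcodes the differences were smaller. In cold C57BL/6J cells none of the 8 genes passed with edgeR or DESeq2, none had an unadjusted p under 0.05, and the log2 differences ran from -0.16 (Ms4a7) to 0.20 (C1qb), beside 15.6% of 3031 genes called in either direction. In warm cells none of 7 passed with edgeR or DESeq2, beside 21.8% of 2070 genes. Csf1r, the only gene with an unadjusted p under 0.05, had a log2 difference of -0.46 (adjusted p = 0.0979). In Balb/c females C1qa passed, at 0.39 (SE 0.11, adjusted p = 0.0429), beside 1.5% of 3793 genes that rose. That call was lost with DESeq2 (adjusted p = 0.201) and without fresh replicate 1 or 2 or cryopreserved replicate 2 or 3. It was also lost with no filter (adjusted p = 0.0516), at resolution 1 (adjusted p = 0.221) and without doublets (adjusted p = 0.0796). With the marker gate more of the 8 genes passed, but the share of all genes in that fit is not given. The gate chose partly other barcodes: 78.4% of the class passed it, and 76.4% of gated barcodes lay in the class. In the main fit C1qc was at 0.36 (adjusted p = 0.0801). The class was held by different clusters before and after storage. In cold C57BL/6J cells, a shallow cluster (median 476 UMIs) held 63.9% of fresh and 18.97% of cryopreserved macrophage-like barcodes, and a deeper one (median 1534 UMIs) the rest. In Balb/c females the deeper cluster held 56.8% of fresh and 95.3% of cryopreserved ones. The part of this shift in the values was not tested.

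**Figure D3:**
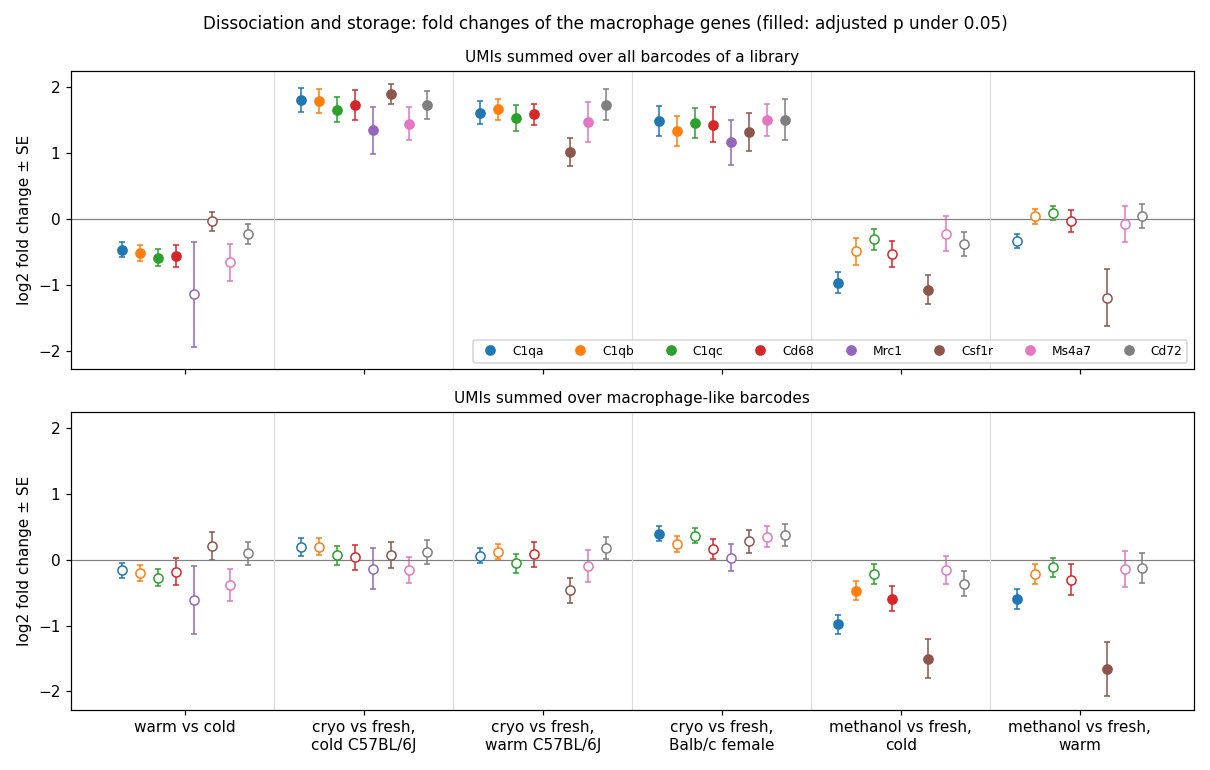
Log2 fold change ± SE of the 8 genes in 6 comparisons of fresh and stored cells and of warm and cold dissociation, from sums over all barcodes (top) and over macrophage-like barcodes (bottom). Filled symbols passed at an adjusted p under 0.05. The cryopreservation values between 1.01 and 1.89 at the top lie between -0.46 and 0.39 at the bottom.

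After methanol fixation of cold-dissociated cells, C1qa and Csf1r fell, 2 of the 7 genes listed in both groups, beside 13.6% of 12004 genes. With the mouse as a replicate block, 6 of the 7 fell, all but Ms4a7, beside 17% of all genes. Libraries of the same mouse deviated together here. C1qa went from 266, 251 and 303 CPM to 98.2, 125 and 145 CPM (-0.97, SE 0.16, adjusted p = 0.00368). Csf1r went from 35.4, 32.9 and 32.6 CPM to 15.3, 9.40 and 17.8 CPM (-1.08, SE 0.22, adjusted p = 0.0081). Mrc1, at 3.31, 3.78 and 5.09 CPM in fresh libraries, was listed at 0 in every methanol library.

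C1qb, at 288, 289 and 364 CPM against 152, 184 and 252 CPM, differed by -0.50 (adjusted p = 0.0963, with the block 0.00569). C1qc, at 185, 180 and 228 CPM against 123, 133 and 166 CPM, differed by -0.32 (adjusted p = 0.177, with the block 0.0151). For both, every fresh library lay above every methanol one. Cd68 (-0.54, adjusted p = 0.067) and Cd72 (-0.39, adjusted p = 0.137) passed with the block (adjusted p = 0.0053 and 0.0324), while Ms4a7 (-0.23, adjusted p = 0.557) passed in neither fit. Without methanol replicate 3 and without the block, 7 genes passed. These include Mrc1, which is at 0 in every methanol library and gives no measured difference. The share of all genes that passed in that fit is not given.

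In warm-dissociated cells none of 7 genes passed after methanol with edgeR or DESeq2, beside 17.3% of 10861 genes called in either direction. At an unadjusted p under 0.05 there were 2 such genes, and the median over all genes was -0.22. C1qa, at 179, 188 and 168 CPM against 117, 138 and 156 CPM, differed by -0.34 (adjusted p = 0.0768, with the mouse as a replicate block 0.0318). Csf1r, at 32.2, 31.8 and 23.7 CPM against 13.2, 15.9 and 0 CPM, differed by -1.20 (adjusted p = 0.104). It passed with the block (adjusted p = 0.0276), as did C1qa alone of the others, beside 8.42% of all genes that fell. It also passed without methanol replicate 3, the library that listed it at 0 (-0.91, adjusted p = 0.036). The other 5 genes lay between -0.08 and 0.08 and overlapped.

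Within macrophage-like barcodes of cold-dissociated cells 4 of 7 genes fell after methanol, beside 14.2% of 2176 genes. C1qa stood at 5574, 5894 and 6151 CPM in fresh and at 3125, 3487 and 3664 CPM in methanol libraries, listed from lowest to highest (-0.98, SE 0.15, adjusted p = 0.000736). Csf1r stood at 452, 496 and 685 CPM against 114, 274 and 283 CPM (-1.50, SE 0.29, adjusted p = 0.00312). These 2 calls held without any single library. C1qb (-0.47, adjusted p = 0.0252) lost its call without cold fresh replicate 2 or methanol replicate 2 or 3 and with no filter on low counts (adjusted p = 0.123). Cd68 (-0.59, adjusted p = 0.0335) lost its call without cold fresh replicate 2 or any methanol replicate, with DESeq2, with no filter (adjusted p = 0.132) and without doublets (adjusted p = 0.0533). C1qc differed by -0.21 (adjusted p = 0.326), and its libraries overlapped. In warm-dissociated cells C1qa (-0.60, SE 0.15, adjusted p = 0.0337) and Csf1r (-1.66, SE 0.41, adjusted p = 0.0337) fell, 2 of 7 genes, beside 5.5% of 1563 genes. Both calls were lost without warm fresh replicate 1 or 3 or methanol replicate 1 or 2, with adjusted p from 0.06 to 0.112. With the marker gate neither passed (adjusted p = 0.581 and 0.136), and with DESeq2 C1qa did not (adjusted p = 0.0591).

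The macrophage-like share was 3.70 ± 0.551% in cold methanol libraries and 3.11 ± 0.215% in warm ones, below the fresh libraries (n = 3 each, exact two-sided permutation p = 0.1 in both, the smallest possible). With the marker gate the warm shares were 2.31 ± 0.484% after methanol and 2.77 ± 0.221% before, and overlapped (exact permutation p = 0.3). The shallow cluster held 94.2% of these barcodes after methanol and 63.9% before in cold-dissociated cells, and 60.1% and 69.8% in warm-dissociated ones. Proximal tubule markers in macrophage-like barcodes summed to 2966 to 6131 CPM in cold fresh and 9757 to 10830 CPM in cold methanol libraries. C1qa had a UMI in 67.7% of macrophage-like and 3.25% of proximal tubule-like barcodes of cold methanol libraries, where the fresh values were 81.3% and 1.41%. At 500 UMIs the macrophage-like shares were 60.9% and 73.4%, and the proximal tubule-like ones 1.04% and 0.358%. The part of RNA from other cells in the methanol values was not tested.

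The proportions of the chains also differed between conditions, which is given as a description. In libraries with at least 400 counts of the 3 genes, C1qa made up 33.8% to 35.9% of C1q UMIs in cold fresh C57BL/6J cells. It made up 35.7% to 36.0% after cryopreservation and 25.8% to 28.2% after methanol. C1qc ran the other way, with 25.0% to 25.5% in fresh and 29.5% to 33.0% in methanol libraries. In warm-dissociated cells C1qa had 35.9% to 36.4% in fresh and 29.3% to 30.5% in methanol libraries, while C1qc, with 23.2% to 24.6% and 23.7% to 28.4%, overlapped. The 2 Balb/c male cell libraries above this count held 28.3% and 30.4% C1qa, and Balb/c female cells, with another chemistry, 43.7% to 45.7% fresh and 45.1% to 46.8% after cryopreservation. Bulk libraries of C57BL/6J suspensions were led by C1qb, with 52.0% to 56.2% in cold and 55.3% to 62.3% in warm ones, of which 1 cold and all 3 warm libraries held fewer counts (310 to 397), whereas in Balb/c female bulk libraries C1qa led, with 38.5% to 40.1% in intact kidney and 38.4% to 40.3% in suspension. The chain proportions in female bulk RNA therefore overlapped between intact kidney and suspension while the levels did not.

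**Figure D4:**
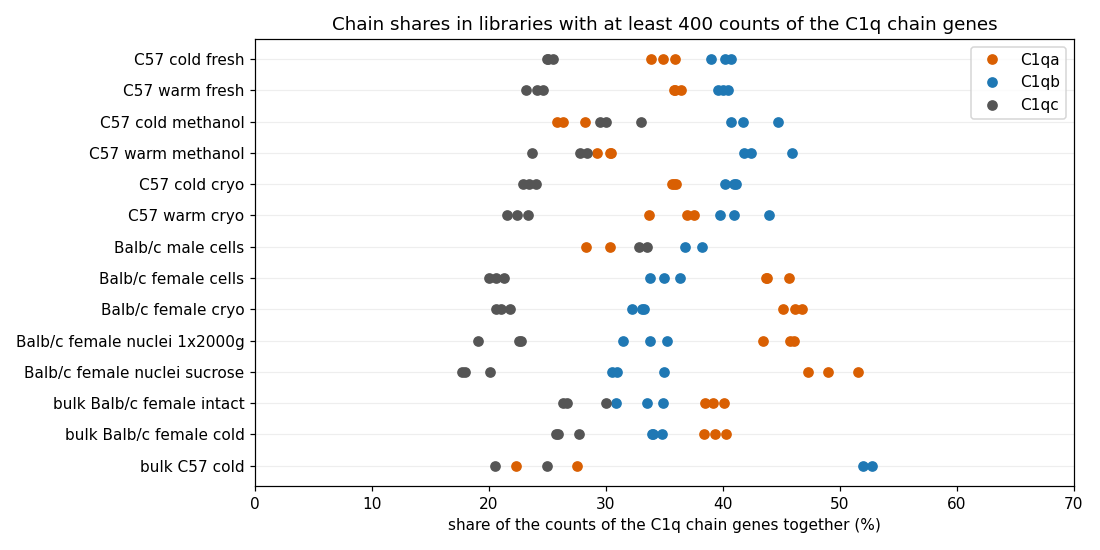
Share of C1qa, C1qb and C1qc in the sum of their counts, in percent, for each library with at least 400 such counts, by condition. C1qa falls to 25.8% to 28.2% in cold methanol libraries, against 33.8% to 35.9% in cold fresh ones.

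Nuclei were compared with cells in Balb/c mice, where intronic and exonic reads were counted in nuclei and exonic reads in cells. This counting and the preparation cannot be told apart. In males, 5 of 7 genes tested were lower in nuclei, beside 27.6% of 14027 genes that fell, and Csf1r was higher, beside 53.6% that rose. C1qa stood at 153, 120 and 42.6 CPM in cells and at 6.82, 1.95 and 2.88 CPM in nuclei (-4.90, SE 0.55, adjusted p = 8.1e-05). C1qb differed by -5.69 (SE 0.58), C1qc by -5.96 (SE 0.54), Cd72 by -4.26 (SE 0.51) and Cd68 by -4.03 (SE 0.48). Csf1r stood at 27.4, 23.7 and 19.8 CPM in cells and at 39.5, 60.8 and 55.8 CPM in nuclei. Its log2 difference of 0.95 (SE 0.21, adjusted p = 0.00321) stood beside a median over all genes of 0.84. Mrc1 was listed at 0 in cell replicates 2 and 3 and stood at 3.94, 2.47 and 3.80 CPM in nuclei (adjusted p = 0.69). Cell replicate 1 was the only cell library that listed it. Ms4a7 was listed at 0 in all 3 nuclei libraries.

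In females, 6 of the 7 genes listed in both groups were lower in SN_FANS_3×500g nuclei than in fresh cells, beside 41% of 13762 genes. C1qa fell from 176, 146 and 279 CPM to 0.987, 1.22 and 1.21 CPM (-7.88, SE 0.27, adjusted p = 1.83e-08). The other chains fell as far, with log2 differences of -8.00 for C1qb (SE 0.31) and -7.77 for C1qc (SE 0.32). Cd68 fell by 4.66 (SE 0.38) and Cd72 fell by 3.66 (SE 0.37), and Ms4a7, at 6.62, 6.93 and 12.2 CPM in cells, was listed at 0 in nuclei. Mrc1 fell by 1.34 (SE 0.30, adjusted p = 0.00263). Its unscaled levels of 5.69, 3.01 and 7.53 CPM in cells and 2.47, 3.39 and 2.61 CPM in nuclei nevertheless overlapped. Csf1r did not pass, at 21.7, 12.3 and 32.6 CPM in cells and 29.4, 36.2 and 37.7 CPM in nuclei (0.23, SE 0.26, adjusted p = 0.42). Its value was -0.04 without cell replicate 2 and 0.58 (adjusted p = 0.0278) without cell replicate 3.

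The protocols for nuclei differed from each other. Against SN_FANS_3×500g, 4 of 7 genes were higher in SN_FANS_1×2000g, beside 19.5% of 17449 genes that rose. C1qa stood at 7.09, 5.93 and 6.62 CPM (2.51, SE 0.15, adjusted p = 0.000154), and C1qb differed by 2.54, C1qc by 2.43 and Mrc1 by 0.69 (SE 0.14, adjusted p = 0.00918). Ms4a7 was at 0.431, 0.321 and 0.341 CPM in SN_FANS_1×2000g and at 0 in SN_FANS_3×500g, and was not tested. Csf1r was at 19.4, 28.5 and 30.0 CPM (-0.42, adjusted p = 0.0751), and passed with DESeq2 (adjusted p = 0.0345).

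SN_sucrose was also compared with SN_FANS_3×500g. It was higher for 5 of the 7 genes listed in both, beside 23.9% of 17304 genes that rose, and lower for Csf1r, beside 21.4% that fell. C1qa stood at 10.99, 14.7 and 9.10 CPM (3.35, SE 0.22, adjusted p = 0.000202), C1qb differed by 3.22, C1qc by 2.94 and Mrc1 by 0.94 (adjusted p = 0.00145). Ms4a7 was at 1.13, 0.467 and 0.536 CPM in SN_sucrose and listed at 0 in SN_FANS_3×500g. Cd72, at 2.63, 1.97 and 3.12 CPM in SN_FANS_3×500g and 4.11, 4.81 and 3.52 CPM in SN_sucrose, differed by 0.68 (adjusted p = 0.0327). That call was lost with DESeq2 (adjusted p = 0.0564) and without SN_sucrose replicate 1 or 2 or SN_FANS_3×500g replicate 1 or 2. Csf1r, at 28.2, 25.2 and 27.6 CPM in SN_sucrose, differed by -0.35 (SE 0.09, adjusted p = 0.0168), which was lost without SN_sucrose replicate 2 (adjusted p = 0.063) or SN_FANS_3×500g replicate 3 (adjusted p = 0.053). Between SN_FANS_1×2000g and SN_sucrose, C1qa alone passed, at -0.86 (SE 0.18, adjusted p = 0.0231), beside 7.87% of 17500 genes that fell. That call was lost without SN_FANS_1×2000g replicate 2 or 3 or SN_sucrose replicate 1 (adjusted p from 0.059 to 0.069), and without SN_sucrose replicate 3 there were 2 calls.

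Few nuclei were macrophage-like. No cluster of male nuclei met the markers, against 3.37 ± 1.06% of male cells. Yet a proximal tubule-like cluster of 693 male nuclei, led by H2-Eb1, H2-Aa, H2-Ab1 and Cd74, held 21.8% of C1qa UMIs (22 UMIs). It also held 28.4% of C1qb, 34.5% of C1qc and 26.7% of Cd72 UMIs, and it is not counted in the class. In females the share was 0.696 ± 0.116% in SN_FANS_3×500g, 1.07 ± 0.0318% in SN_FANS_1×2000g and 1.30 ± 0.0925% in SN_sucrose, against 4.09 ± 0.951% of fresh cells (n = 3 each, exact two-sided permutation p = 0.1 for SN_FANS_3×500g against cells and for each pair of protocols, the smallest possible). At resolution 1 the share of fresh cells was 2.32 ± 0.398%. With the marker gate the share of SN_FANS_3×500g nuclei was 0.303 ± 0.135% and that of male cells 1.60 ± 1.10%. All 766 such nuclei were in a single cluster, which also met 4 dendritic cell markers and in which 20.1% of barcodes were marked as doublets. Dendritic cell markers summed there to 847 to 1712 CPM in SN_FANS_3×500g and to 265 to 296 CPM in macrophage-like fresh cells. The part of this mixture in the values was not tested.

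Summed over macrophage-like barcodes, all 7 genes listed in both groups were lower in SN_FANS_3×500g nuclei than in fresh cells, beside 38.2% of 5397 genes. C1qa stood at 7441, 7830 and 8448 CPM in cells and at 92.1, 138 and 194 CPM in nuclei, listed from lowest to highest, a log2 difference of -6.86 (SE 0.24). The log2 differences were -7.02 for C1qb, -7.17 for C1qc, -5.41 for Cd68 and -4.66 for Cd72. On the nuclei side few UMIs were counted a library, with 16, 25 and 26 for C1qa and 17, 16 and 15 for C1qb. C1qc had 5, 8 and 12, Cd68 2, 9 and 3, and Cd72 6, 15 and 15. Csf1r, which had not passed over all barcodes, fell by 3.58 here (SE 0.26, adjusted p = 1.03e-10), from 550, 749 and 780 CPM to 105 to 142 CPM. The smallest difference was that of Mrc1, -1.56 (SE 0.27, adjusted p = 2.23e-05), from 141, 207 and 218 CPM to 97.9 to 171 CPM, where the libraries overlapped. A C1qa UMI was present in 29.6% of macrophage-like SN_FANS_3×500g nuclei (0.0933% of proximal tubule-like ones), and in 59.0% of those of SN_sucrose (1.05%). At 500 UMIs these shares were 8.50% (0.00938%) and 32.9% (0.174%), and the median depth of macrophage-like nuclei was 2480 to 3073 and 2026 to 2151 UMIs. In proximal tubule-like nuclei it was 4173.5 to 5098 and 3649.5 to 4252 UMIs.

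Between protocols, 5 of 7 genes were higher in macrophage-like SN_FANS_1×2000g than in SN_FANS_3×500g nuclei, beside 5.31% of 4994 genes. C1qa differed by 2.11, C1qb by 2.01 and C1qc by 2.34, and these calls held with DESeq2. The SN_FANS_3×500g side of the comparisons rests on the few UMIs given above. Csf1r (0.88, adjusted p = 0.0332) and Mrc1 (0.77, adjusted p = 0.0487) lost their calls with DESeq2 and with the marker gate, and Mrc1 with no filter on low counts. Csf1r also lost it without SN_FANS_1×2000g replicate 2 or 3 or any SN_FANS_3×500g replicate, and Mrc1 without any of the libraries except SN_FANS_3×500g replicate 3. In SN_sucrose the chains differed by 2.61, 2.38 and 2.597 and Csf1r by 1.11 (adjusted p = 0.0143), 4 genes beside 2.41% of 5270. Csf1r lost its call with DESeq2 (adjusted p = 0.0586) and without SN_sucrose replicate 2 or SN_FANS_3×500g replicate 1. Mrc1 passed when doublets were removed (0.96, adjusted p = 0.0177) and with the marker gate (1.29, adjusted p = 0.0256). Between SN_FANS_1×2000g and SN_sucrose none of the genes passed with edgeR or DESeq2, beside 0.84% of 5951 genes called in either direction, and C1qa alone had an unadjusted p under 0.05 (-0.49).

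Most Csf1r counts in nuclei lay outside macrophage-like barcodes. In the 9 female nuclei libraries the class held 70.6% of C1qa UMIs but 5.46% of those of Csf1r, 34.5% of those of Mrc1 and 28.9% of those of Cd72. These values pool protocols that differ. The Csf1r share of a library was 1.73% to 2.13% in SN_FANS_3×500g, 5.30% to 6.79% in SN_FANS_1×2000g and 8.42% to 10.6% in SN_sucrose. An unnamed cluster of 4851 barcodes, led by Rnf24 and Bcat1, held 42.1% to 62.3% of a library's Csf1r UMIs in 5.04% to 7.72% of its barcodes. Csf1r stood there at 112 to 246 CPM, which overlapped the 105 to 255 CPM of macrophage-like nuclei, while C1qa was at 0 to 2.05 CPM. A further unnamed cluster of 2626 barcodes, led by Hdc and Ifitm7, held Csf1r at 86.7 to 202 CPM and 11.5% to 27.0% of its UMIs. All other clusters together were at 4.26 to 8.30 CPM. Summed over the libraries, a cluster of 168 barcodes among them, with Rnf24 and Spink6 in its 10 leading genes, stood at 115 CPM, and a thin limb-like one of 1069 barcodes at 51.0 CPM, with 1.35% and 1.86% of Csf1r UMIs. Hmgxb3, which overlaps Csf1r on the other strand, was at 74.1 to 107 CPM in the Rnf24 cluster and 48.9 to 54.8 CPM in the other clusters. This was a smaller contrast than that of Csf1r. The part of the shared stretch in these counts was not tested.

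In male nuclei a cluster of 2183 barcodes led by Bcat1, Cyp7b1 and Spink6 held 55.2% to 56.3% of Csf1r UMIs, at 242 to 268 CPM, with C1qa at 1.04 to 3.53 CPM. The cluster with the next largest share of Csf1r UMIs held 8.45% to 9.42% of them at 24.5 to 47.1 CPM, and the remaining clusters together stood at 17.98 to 28.97 CPM. Among those, summed over the libraries, a proximal tubule-like cluster of 62 barcodes stood at 126 CPM (17 UMIs) and an unnamed one of 254 barcodes led by Bst1 and Zan at 98.5 CPM (21 UMIs). These clusters were chosen after their Csf1r values were seen. Of the 10 leading genes of the female Rnf24 cluster, 9 could be tested in female bulk RNA, and all 9 were lower in the suspension than in the intact kidney, by 2.46 to 3.47 on the log2 scale, beside 11.6% of all genes that fell. Slc7a12, an amino acid transporter, went from 292 to 358 CPM in intact kidney to 29.7 to 36.3 CPM. C8a, the complement gene above, is among them. Their part in the bulk difference of Csf1r was not tested. In Balb/c female cells, fresh and cryopreserved, the highest Csf1r level outside the macrophage-like and monocyte-like clusters was 68.3 CPM, in an unnamed cluster of 291 barcodes led by Kap and Aadat.

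Across the 18 C57BL/6J 10x libraries, the genes outside the set whose level was most like the mean of the C1q chains were Slamf9, Hexa, Rgs10, Fcer1g and Ctss. Their Pearson correlations over log2(CPM + 1) ran from 0.983 to 0.990, among 5714 genes with a mean of at least 20 CPM, and their Spearman correlations from 0.886 to 0.936. By Spearman correlation none of these 5 was among the 5 highest. The libraries fall into fresh, cryopreserved and methanol groups, and the correlations include the difference between these. After subtraction of the condition means the Pearson correlations were 0.450 to 0.764. Of the members, Cd68 had 0.989, Cd72 0.980 and Ms4a7 0.964, and Csf1r the lowest of those compared at 0.777. After subtraction of the condition means these were 0.712, 0.813, 0.7997 and -0.06.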

How the data were processed

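Gene counts were analysed as the authors deposited them: whole-number UMI counts per gene and barcode for the 10x libraries, and read counts per gene for the bulk libraries. Per the study's methods and the submitters' processing notes, 10x reads were counted with Cell Ranger 2.1.1 (mm10), with exonic reads for cells and exonic and intronic reads for nuclei. Barcodes had been filtered on genes and mitochondrial reads, and genes found in fewer than 10 barcodes of a library dropped, so that a low gene can be absent. The files depart from this in 7104 pairings of a gene with a library, where the gene was in 1 to 9 barcodes, 3 of them members. Bulk reads were mapped with STAR 2.6.1a (GRCm38) and counted with featureCounts, after ribosomal RNA depletion or poly(A) selection. Which kit a library had, and whether counting used strand, is not given in the sources used here. The 8 members and the gene lists were chosen with earlier results of these data known.

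The unit of replication was the library (3 per condition). Mitochondrial genes were removed. UMIs were summed over all barcodes, and over macrophage-like barcodes, of each library. Sums and bulk counts were compared with edgeR 4.0.16 (quasi-likelihood test, TMM, filterByExpr, Benjamini-Hochberg over all genes tested), in 11 comparisons of 10x and 2 of bulk libraries. Each fit held only its 6 libraries. Macrophage-like sums needed 10 barcodes in at least 2 libraries of a group. Barcodes were clustered in 5 sets without the 8 members (scanpy 1.11.5, 2000 variable genes, 30 components, 20 neighbors, Leiden resolution 2), and clusters were named from at least 3 markers of 18 classes. Gene names follow a fixed rule: the members, up to 3 called genes a direction of the complement and CSF1 receptor lists in bulk, and the 5 genes most like C1q. Leading genes of the Csf1r clusters, antisense partners and the remaining named genes of the lists were named after their values were seen.

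The file headers of the C57BL/6J 10x libraries hold codes shared by the libraries of a replicate, which were read as the mouse. Libraries with the same code were paired only in fits with the replicate block, and the main fits were unpaired. No block was fitted in the Balb/c or bulk comparisons. Deviations from group means correlated between paired libraries at 0.249 to 0.331 for methanol after cold dissociation, 0.109 to 0.218 for methanol after warm dissociation, -0.038 to 0.174 for warm against cold, 0.031 to 0.089 for cold cryopreservation and -0.032 to 0.015 for warm cryopreservation. In simulated counts with the means of the bulk comparison of intact kidney and suspension (16334 genes), 50% of genes changed by a log2 of 1 and 99% of those changed by 2 were recovered. For sums over all barcodes of cold cryopreserved and fresh cells (11162 genes) these shares were 27.7% and 99.0%. For macrophage-like sums of the same libraries (2791 genes) they were 34.1% and 92.9%. The simulation gave all genes the same spread and changed fewer genes than passed in the data. These shares therefore need not hold for the data. Alternatives were DESeq2 1.42.0, other scalings and filters, a replicate block, resolution 1, a gate of 4 of 14 macrophage markers, removal of doublets, and each library left out.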

Additional observations from a re-analysis of the deposited data

How the results depend on the processing

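The values below are numbers of the 8 genes that passed, unless said otherwise, and include genes at 0 in a whole group (Mrc1 in cold methanol, Ms4a7 in SN_FANS_3×500g). Shares of all genes that passed under these other settings are not given, except for the replicate block above. A changed number therefore cannot be read as particular to the 8 genes. Macrophage-like barcodes were few (at most 343 a library), which limits tests within the class, and Mrc1 and Ms4a7 lie near the detection limit of several libraries. In bulk, adding a log2 fold change of at least 2 left 0 of the 8 for intact kidney against suspension and 0 of the 1 for warm against cold. For the latter, no filter gave 3 and the exact test of edgeR 2. Leaving out 1 library gave 7 to 8 and 0 to 3, with log2 differences of -0.47 to 0.057 for Cd68 and -0.025 to 0.22 for Mrc1 in the latter. Over all barcodes, warm against cold gave 2 with the replicate block and 0 to 4 without 1 library, where Csf1r ran from -0.16 to 0.090. Cold methanol (3) gave 7 with library totals alone, 6 with the replicate block and 2 to 7 without 1 library. Warm methanol gave 1 with library totals, 2 with the replicate block, 1 with only genes above 0 in every library and 0 to 1 without 1 library. SN_FANS_1×2000g against SN_sucrose gave 0 to 2 without 1 library, with Csf1r from -0.21 to 0.062. For nuclei against cells, the log2 difference of Mrc1 in males ran from -0.32 to 7.27 without 1 library (7.27 is fitted against cells at 0 and is no measured difference), with -0.05 without cell replicate 3, and that of Csf1r in females from -0.042 to 0.58. Within macrophage-like barcodes, Balb/c cryopreservation (1) gave 0 with DESeq2, 0 with no filter, 0 at resolution 1, 5 with the marker gate, 0 without doublets and 0 to 2 without 1 library. Cold methanol (4) gave 7 with the gate and 2 to 5 without 1 library. Warm methanol (2) gave 1 with DESeq2, 0 with the gate, 1 with only genes above 0 and 0 to 2 without 1 library. SN_FANS_1×2000g against SN_FANS_3×500g (5) gave 3 with DESeq2, 3 with the gate and 3 to 4 without 1 library. SN_FANS_1×2000g against SN_sucrose (0) gave 1 with the gate, where Mrc1 turned from 0.12 to -0.40 and the difference in macrophage-like share from -0.228 to 0.0119 percentage points. Where no construction of the alternative explains a change, the cause was not tested. The replicate block removed the call of Mrc1 in cold cryopreservation and in cold methanol (adjusted p = 0.061) and changed no other call beside those given here and in the report. For single genes, values under other settings were tallied only where the gene had passed, for all genes in bulk, for Csf1r over all barcodes and for Mrc1 in nuclei, so calls gained by other genes are not in these numbers. Over all barcodes, 353 of 361 values kept direction and call under the other settings and 336 of 371 without 1 library. In bulk these were 76 of 80 and 82 of 96, and within macrophage-like barcodes 166 of 186 and 125 of 156. Of the UMI shares in macrophage-like barcodes, 38 of 62 moved by less than the spread between libraries. Of the shares of macrophage-like barcodes with a UMI, 166 of 184 moved by more than that spread when the thinning to 500 UMIs was set to 1000 or left out.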
